A study of Drosophila melanogaster with 12 samples.

Results

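Entry into and exit from mitosis are driven by a small set of kinases, cyclins and their regulators, and 10 of these genes are described here in Drosophila S2 cells exposed to insulin. They are the kinases Cdk1, polo, aurA and aurB, the cyclins CycA, CycB and CycB3, the phosphatase stg, the APC/C activator fzy and the checkpoint gene BubR1. They were chosen by name, with no threshold on a measured value, but with earlier results of these data known. All 10 were found among the 10287 genes of the RNA-seq count table. S2 cells are a macrophage-like line derived from late Drosophila embryos of the Oregon-R stock, and all samples come from this 1 line. Before treatment the cells spent 24 h in medium free of serum. They then received insulin or vehicle for 4 h, the vehicle being 25 mM HEPES at pH 8.2. The insulin dose was 10 µM by the study's methods, while the sample labels write 10 M. RNA-seq was performed on 3 libraries per treatment, and accessible chromatin was mapped by ATAC-seq on 3 samples per treatment, for which pooled peak lists were used.

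Cdk1 bound to an A-type or B-type cyclin phosphorylates the proteins that bring cells into mitosis, and stg, the fly Cdc25 phosphatase, removes the inhibitory phosphates from Cdk1. Polo and the Aurora kinases then act on centrosomes, kinetochores and the spindle. BubR1 holds back the APC/C, the ubiquitin ligase of mitotic exit, until chromosomes are attached, and fzy, the fly Cdc20, activates it so that cyclins are destroyed. In many cells the RNA of these genes is itself higher in G2 and mitosis than in G1, and insulin is a growth signal that S2 cells respond to through the insulin receptor, PI3K and TOR.

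The RNA libraries held 7132065 to 10256535 counts each. Across genes, pairs of libraries of the same treatment differed by 2.27 to 6.83 times the variance expected from counting alone, and pairs of different treatments by 21.8 to 28.4 times, so no library repeated another. Insulin changed many genes: of 8683 genes tested, 27.0% were higher and 23.1% lower at FDR < 0.05, and the median log2 fold change was -0.01. FDR is the Benjamini-Hochberg adjusted p of edgeR's quasi-likelihood test over all genes tested. No source used here says that the libraries came from separate cultures, so the p-values measure only the spread between these libraries. In bulk RNA, fewer cells in G2 or mitosis and less of an RNA per cell cannot be told apart.

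The sequence directly upstream of the outermost annotated start site is shown for members that changed after insulin. Those on chromosome arms 2L, 3L or 3R are given, to set those that rose beside those that fell. Polo and stg have 2 annotated start sites each, and the sequence upstream of the inner ones was not searched. The outermost start of polo lay 137 bp outside the merged peak that holds its inner start. The letters were read from the dm6 reference of RefSeq, run 5′ to 3′ on the gene's own strand and end at the base before the start. Capitals mark matches, on either strand, to the DRE (TATCGATA), bound by Dref, to an E2F site (TTCCCGC or TTCGCGC, or else TTGCCGC or TTGGCGC), to the CHR (TTTGAA), an element known from mammalian mitotic promoters, or to Motif 1 (GGTCACAC), a common fly core promoter element. CycA and stg are the members that rose, at chr3L:11833579-11833728 and chr3R:29255801-29255950, both on the minus strand.
CycA: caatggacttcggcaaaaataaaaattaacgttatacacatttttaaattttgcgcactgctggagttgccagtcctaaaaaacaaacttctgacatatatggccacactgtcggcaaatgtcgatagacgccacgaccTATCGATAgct
stg: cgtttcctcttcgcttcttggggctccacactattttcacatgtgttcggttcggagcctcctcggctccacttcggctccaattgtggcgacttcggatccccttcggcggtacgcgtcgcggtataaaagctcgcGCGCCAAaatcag
The members on these arms that fell include polo at chr3L:20309512-20309653 and aurA at chr3R:11962974-11963123, both on the plus strand. The others are aurB at chr2L:10858095-10858244 on the minus strand and fzy at chr2L:16310806-16310955 on the plus strand.
polo: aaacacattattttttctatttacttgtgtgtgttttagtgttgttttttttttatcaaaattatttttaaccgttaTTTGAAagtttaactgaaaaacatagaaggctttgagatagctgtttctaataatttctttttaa
aurA: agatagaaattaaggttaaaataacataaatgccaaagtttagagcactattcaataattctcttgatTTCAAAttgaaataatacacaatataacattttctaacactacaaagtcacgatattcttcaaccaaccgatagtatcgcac
aurB: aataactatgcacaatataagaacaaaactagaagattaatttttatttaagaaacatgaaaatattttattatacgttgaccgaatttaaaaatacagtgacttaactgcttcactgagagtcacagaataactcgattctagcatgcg
fzy: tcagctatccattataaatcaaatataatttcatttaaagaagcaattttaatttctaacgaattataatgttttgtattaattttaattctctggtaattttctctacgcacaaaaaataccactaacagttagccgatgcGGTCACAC

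The DRE match of CycA lay 11 to 4 bases before its start. The nearer of the 2 E2F matches of stg lay 13 to 7 bases before its outermost start. In fzy a Motif 1 match ended at the last base before the start. Within 250 bases upstream of the outermost start, a DRE was found at CycA and BubR1, against 11.6% of 8655 promoters. An E2F match was found at stg alone among the 10, against 12.3%. A CHR match was found at CycB, CycB3, polo and aurA, but 39.2% of promoters hold this short word. Motif 1 was found at CycB, CycB3 and fzy, against 6.37% of promoters. The FOXO word TGTTTAC was found at polo, against 7.56%, and the E-box CACGTG, bound by Myc, at none of the 10, against 2.67%. No match of one motif overlapped that of another at these genes. The genes that rose and the genes that fell shared no motif beyond the DRE of CycA and BubR1. A match is a word in the sequence and was not tested for binding.

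Insulin did not move the mitotic genes as a block. CycA and stg rose, by 13.6% and 15.2%. Polo, aurA, aurB, fzy and BubR1 fell, by 14.0% to 32.0%. Cdk1, CycB and CycB3 did not pass the test. The 2 higher members stand against a background of 27.0% of tested genes and the 5 lower members against 23.1%. By the looser measure of libraries that do not overlap, insulin was above vehicle for 2 members and below it for 6, against 28.8% and 26.8% of tested genes. These 7 calls held in each of 11 alternatives of normalization, filter, test and left-out library.

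**Figure D1:**
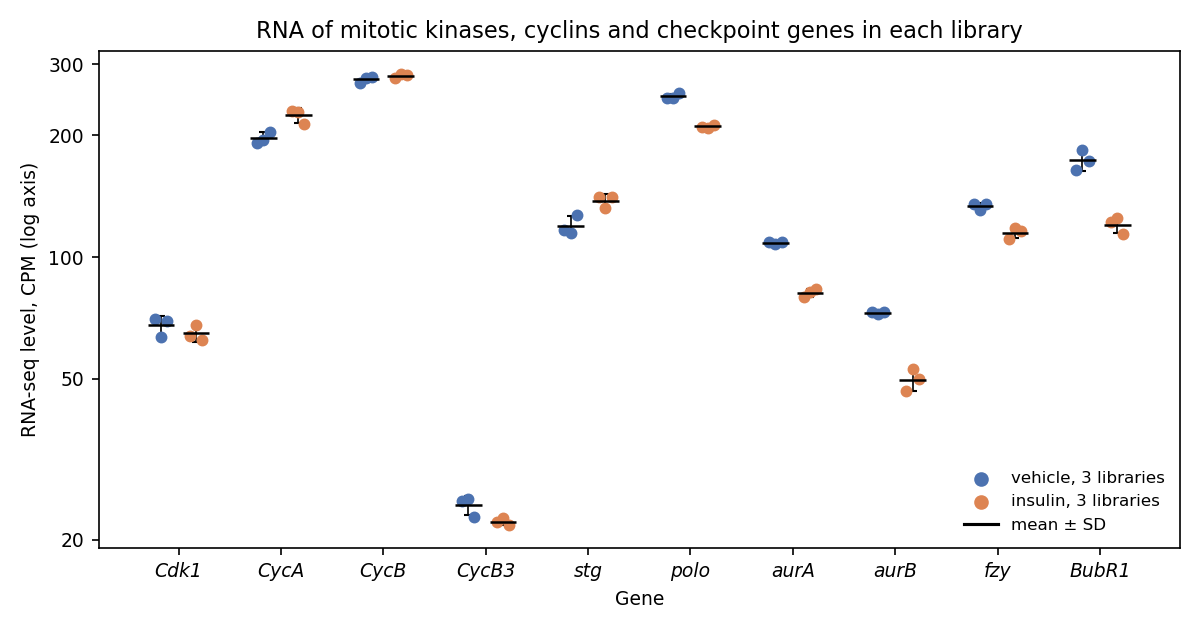
RNA-seq level of each gene in CPM (TMM scaled, log axis) in the 3 vehicle (blue) and 3 insulin (orange) libraries, with the mean and SD in black. The insulin points lie above all vehicle points for CycA and stg and below them for CycB3, polo, aurA, aurB, fzy and BubR1.

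Cdk1, the kinase at the centre of the mitotic switch, had 70.4, 63.3 and 69.7 CPM (counts scaled to the size of each library) in the vehicle libraries and 64.0, 68.1 and 62.3 CPM in the insulin libraries. The groups overlapped. The log2 fold change was -0.07 ± 0.055 (SE, n = 3 libraries per treatment; edgeR FDR 0.30), and its 95% interval ran from -0.18 to 0.04.

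The cyclins that partner Cdk1 differed among themselves. CycA, which acts in S phase and early mitosis, had 191, 195 and 204 CPM in vehicle and 230, 229 and 213 CPM after insulin. Every insulin library was above every vehicle library, with a log2 fold change of 0.18 ± 0.038 (SE; edgeR FDR 8.4e-05). CycB, the main B-type cyclin, had 270, 277 and 279 CPM in vehicle and 277, 284 and 282 CPM after insulin. These ranges met at 277 to 279 CPM, and the log2 fold change of 0.03 ± 0.034 (SE; edgeR FDR 0.47) had a 95% interval from -0.04 to 0.10. CycB3, a B-type cyclin with roles in anaphase and female meiosis, had 25.0, 25.2 and 22.8 CPM in vehicle and 22.1, 22.7 and 21.8 CPM after insulin. All insulin libraries were below the vehicle libraries, but the lowest vehicle value was close to the highest insulin value, and the log2 fold change of -0.13 ± 0.086 (SE; edgeR FDR 0.22) did not pass the test, with a 95% interval from -0.30 to 0.05.

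The phosphatase stg, which is limiting for mitotic entry in many fly tissues, had 117, 115 and 127 CPM in vehicle and 141, 132 and 141 CPM after insulin. The groups did not overlap, and the log2 fold change was 0.20 ± 0.044 (SE; edgeR FDR 0.00014). The size was ordinary for this treatment, as 50.2% of tested genes had a larger absolute change than stg and 54.2% a larger one than CycA.

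Among the members, the kinases beside Cdk1 all fell. Polo, which acts at centrosomes, kinetochores and in cytokinesis, had 248, 247 and 254 CPM in vehicle and 210, 209 and 212 CPM after insulin. The libraries of each treatment lay within a few CPM of each other and the groups were apart, with a log2 fold change of -0.25 ± 0.035 (SE; edgeR FDR 8.1e-08). The gene aurA encodes the Aurora kinase of centrosomes and spindle poles. It had 109, 108 and 109 CPM in vehicle and 79.5, 81.9 and 83.3 CPM after insulin, a log2 fold change of -0.42 ± 0.045 (SE; edgeR FDR 9.7e-11). The kinase of the chromosomal passenger complex, which corrects chromosome attachment and directs cytokinesis, is encoded by aurB. It had 73.3, 72.3 and 73.0 CPM in vehicle and 46.6, 52.9 and 49.9 CPM after insulin, a log2 fold change of -0.56 ± 0.057 (SE; edgeR FDR 2.9e-11). Of all genes tested, 12.5% had a larger absolute change.

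The 2 members that control the APC/C also fell. The activator fzy had 135, 131 and 135 CPM in vehicle and 111, 118 and 116 CPM after insulin, and all insulin libraries were lower. Its log2 fold change was -0.22 ± 0.042 (SE; edgeR FDR 2.9e-05). BubR1 had 164, 184 and 173 CPM in vehicle and 122, 125 and 114 CPM after insulin. The vehicle libraries spread more than those of most other members but stayed well above the insulin libraries, with a log2 fold change of -0.53 ± 0.044 (SE; edgeR FDR 9.8e-14), and 13.8% of tested genes had a larger absolute change. The falls of BubR1 and aurB lay within their errors of each other and have no order.

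**Figure D2:**
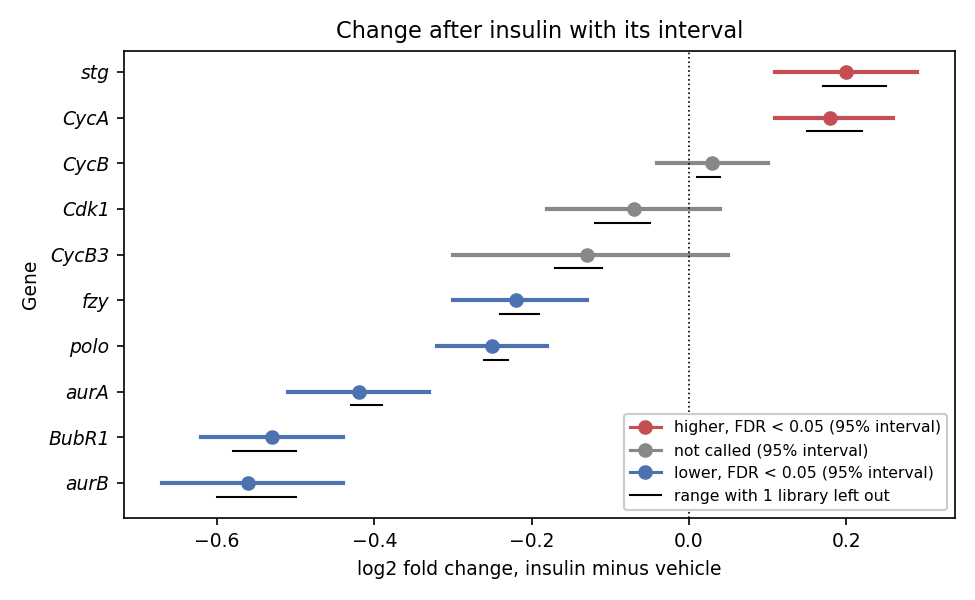
Log2 fold change (insulin minus vehicle) of each gene from edgeR, with its 95% interval (thick line) and the range of the estimate when 1 of the 6 libraries was left out (thin black line). The intervals of stg and CycA lie above 0, those of CycB, Cdk1 and CycB3 include 0, and those of fzy, polo, aurA, BubR1 and aurB lie below 0.

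Short stretches of 2 members overlap genes on the other strand. The aurA exons share 153 bp with CG12213, which had a log2 fold change of -0.04 (edgeR FDR 0.43), and the fzy exons share 62 bp with cact, the fly IκB gene, which fell with a log2 fold change of -0.13 (edgeR FDR 0.0034). The counting used a strand setting, but the sources do not state that the kit marked the strand, so reads in these stretches cannot be assigned with certainty. Another neighbour, CG7264, lies opposite CycA with no shared exon.

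Ratios of 2 members within a library need no normalization, and 5 pairs were compared. The ratio of stg to Cdk1 counts, an activator over its target, was 1.67, 1.81 and 1.82 in vehicle and 2.20, 1.93 and 2.26 after insulin. The ratio of fzy to BubR1, an APC/C activator over an inhibitor, was 0.823, 0.714 and 0.782 in vehicle and 0.915, 0.949 and 1.02 after insulin. In both pairs every insulin library was above every vehicle library, and the group means differed by 0.27 and 0.32 on the log2 scale. The ratio of aurA to aurB moved from 1.49 to 1.64, and that of CycA to CycB from 0.715 to 0.795, as geometric means. CycB3 over CycB moved the other way, from 0.0882 to 0.0789. The groups did not overlap in any of the 5 pairs, and the two-sided exact permutation test gave p = 0.1 for each (adjusted p = 0.1 over the 5 pairs). This permutation test cannot give a smaller p with 3 libraries against 3, so it cannot reach 0.05 for a ratio.

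Levels were compared between genes as CPM per kb of exon. In vehicle the order was led by CycB at 90.3 CPM per kb, followed by polo at 83.8, aurA at 69.0, CycA at 67.4, fzy at 67.1, Cdk1 at 62.7, aurB at 61.6, stg at 39.0, BubR1 at 37.5 and CycB3 at 8.43 CPM per kb. The ranges over libraries overlapped between aurA and CycA, CycA and fzy, Cdk1 and aurB, and stg and BubR1, so these neighbours have no order. Apart from CycB3, every member was above the median tested gene, at 18.9 CPM per kb. After insulin CycB stayed first at 92.3 CPM per kb, followed by CycA at 76.6 and polo at 70.6. The level of aurA was 51.7 CPM per kb, below Cdk1 at 59.9 and fzy at 57.8, and aurB at 42.1 CPM per kb overlapped stg at 45.0.

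**Figure D3:**
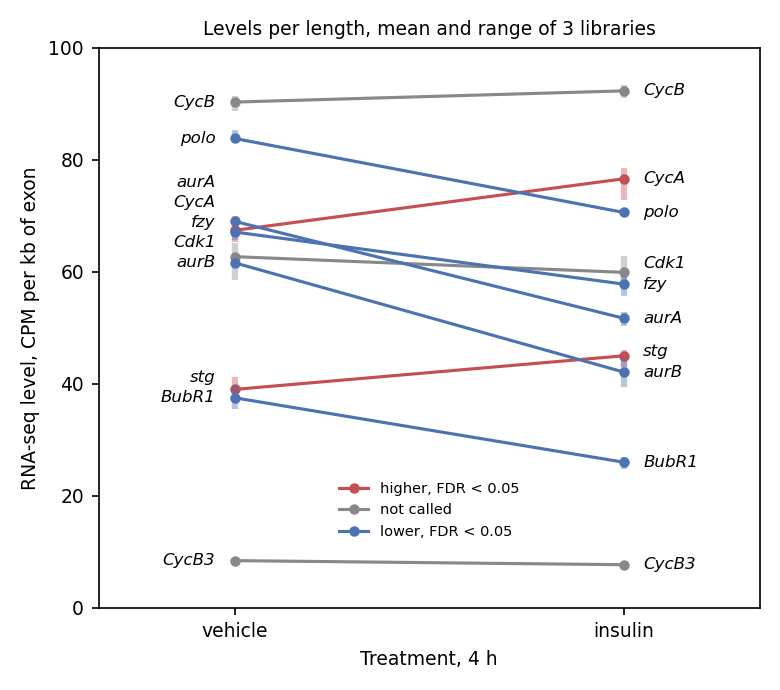
RNA-seq level per length (CPM per kb of exon) in vehicle and insulin, as the mean (points) and range (pale bars) of 3 libraries. The lines of CycA and stg rise, those of aurA, aurB, polo, fzy and BubR1 fall, and CycB3 stays lowest at 8.43 and 7.7 CPM per kb.

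Other genes of mitosis were read out from the same fit in 9 lists, given by their counts beside those of all genes. The lists were chosen with earlier results of these data known, so their contrast with all genes is a description only. Most structural parts of mitosis held more lower than higher genes. Over the 8 lists below other than the transcriptional regulators, 71 of 112 tested genes fell and 8 rose, which is 63.4% lower and 7.14% higher against 23.1% and 27.0% of all genes tested, and their median log2 fold change was -0.22.

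The partners of the Aurora kinases fell with them. All 6 tested genes of this list were lower by edgeR, against 23.1% of all genes tested, with a median log2 fold change of -0.32. By DESeq2 4 were lower, against 1351 of all 8683 genes tested. None was higher, against 27.0% of all genes tested by edgeR: the count was 0 by edgeR, 0 by DESeq2 and 0 at an unadjusted p under 0.05. The calls lost by DESeq2 were those of bora and Det, an activator of Aurora A and a passenger complex subunit, which were lost in 6 and 2 of 11 alternatives. Both were named after their values were seen, as was Nuf2 in the next list. Incenp, the scaffold that binds and activates Aurora B, had 145 to 155 CPM in vehicle and 102 to 114 CPM after insulin, a log2 fold change of -0.49 (edgeR FDR 1.2e-12). The Borealin gene borr fell by 0.44 on the log2 scale (edgeR FDR 1.3e-07). Among microtubule partners, mars fell by 0.32 (edgeR FDR 8.1e-08) and mei-38, the fly TPX2 relative, also by 0.32 (edgeR FDR 0.00066).

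Kinetochore genes showed the lowest median, -0.38, with 11 of 13 (84.6%) lower by edgeR, against 23.1% of all genes tested, and 10 by DESeq2. The count of higher genes was 0 by edgeR, against 27.0% of all genes tested, 0 by DESeq2 and 0 at an unadjusted p under 0.05. Nuf2, which pairs with Ndc80, lost its call by DESeq2 and in 5 of 11 alternatives in all. The genes not called were cid and Nnf1b, with log2 fold changes of -0.12 (edgeR FDR 0.51) and 0.03 (edgeR FDR 0.86). The microtubule-binding gene Ndc80 fell by 0.59 (edgeR FDR 2.1e-09), Spc105R, which recruits checkpoint proteins, by 0.53 (edgeR FDR 8.1e-13), the CENP-E relative cmet by 0.54 (edgeR FDR 1.7e-14) and the centromere gene Cenp-C by 0.46 (edgeR FDR 1.2e-09) on the log2 scale. In the spindle checkpoint, 6 of 9 genes (66.7%) fell and 1 (11.1%) rose by edgeR, against 23.1% and 27.0% of all genes tested. By DESeq2 4 fell. The members that fell include rod, Zw10 and Zwilch, the complex that brings dynein to kinetochores, with log2 fold changes of -0.57 (edgeR FDR 1.3e-15), -0.15 (edgeR FDR 0.0035) and -0.27 (edgeR FDR 0.0027). Spindly, which links that complex to dynein, fell by 0.65 (edgeR FDR 2.4e-09). The gene that rose was Bub1, a relative of BubR1, with a log2 fold change of 0.15 (edgeR FDR 0.021). Here and in the lists that follow, the exceptions to a list's direction were named after their values were seen. So were the lower genes whose calls were lost. The call of Bub1 was lost in 6 of 11 alternatives. Among the lower genes, the call of Mps1 was lost in 4 of them and that of mad2 in 1, DESeq2.

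Among genes of cohesin, condensin and separase, 15 of 20 fell and 1 rose. The genes of this list with the smallest FDR were condensin subunits. Cap-D2 fell by 0.64 (edgeR FDR 1.7e-16), Cap-G by 0.54 (edgeR FDR 1.8e-14), glu by 0.54 (edgeR FDR 4.2e-14) and barr by 0.49 (edgeR FDR 6e-12) on the log2 scale. The condensin subunit Cap-H2 was not called, with a log2 fold change of 0.03 (edgeR FDR 0.76). The gene that rose was san, an acetyltransferase needed for cohesion, with a log2 fold change of 0.47 (edgeR FDR 3e-08). Spindle and cytokinesis genes were lower in 15 of 18 cases (83.3%) and higher in 1 (5.56%), against the same 23.1% and 27.0% of all genes. The call of the lower gene Klp10A was lost in 3 of 11 alternatives. The anillin gene scra went from 275 to 298 CPM in vehicle to 173 to 189 CPM after insulin, a log2 fold change of -0.65 (edgeR FDR 5.7e-18). The minus-end kinesin ncd fell by 0.49 (edgeR FDR 4.6e-15) and the citron kinase sti by 0.45 (edgeR FDR 2.4e-14). The gene that rose was feo, the fly PRC1 relative, with 0.11 (edgeR FDR 0.028), a call lost in 7 of 11 alternatives. In the centrosome list 10 of 15 genes (66.7%) fell and 1 (6.67%) rose, again against 23.1% and 27.0% of all genes. The call of the lower gene asl was lost in 2 of 11 alternatives. The gene that rose was cnn, a scaffold of the centrosome, with 0.15 (edgeR FDR 0.0033), a call lost in 1 of 11 alternatives. SAK, the fly Plk4 that starts centriole duplication, fell by 0.45 (edgeR FDR 2.4e-10), ana1 by 0.47 (edgeR FDR 9.9e-09), the pericentrin-like gene cp309 by 0.41 (edgeR FDR 3.1e-12) and the augmin gene dgt6 by 0.38 (edgeR FDR 5.7e-07).

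The genes that regulate Cdk1 and the APC/C were mixed. Of 18 tested Cdk1 regulators 4 (22.2%) fell and 2 (11.1%) rose, with a median log2 fold change of 0.01. Of all genes tested, 23.1% fell and 27.0% rose, so the share of these regulators that fell was near that of all genes. The Cdk1-binding genes Cks85A and Cks30A fell by 0.35 (edgeR FDR 1.1e-07) and 0.41 (edgeR FDR 3.7e-05), and the ATR kinase gene mei-41 by 0.29 (edgeR FDR 6.2e-05). Also lower was endos, a PP2A inhibitor, by 0.15 (edgeR FDR 0.0022). The phosphatase genes Pp1-87B and mts rose, both with a log2 fold change of 0.17 (edgeR FDR 3e-05 and 0.0004). In the APC/C list 4 of 13 genes (30.8%) fell and 2 (15.4%) rose, against the same 23.1% and 27.0% of all genes. The APC2 gene mr fell by 0.41 (edgeR FDR 4.4e-09), the inhibitor gene Rca1 by 0.33 (edgeR FDR 0.0008) and APC4 by 0.25 (edgeR FDR 0.022). The E2 enzyme of the APC/C, vih, rose with a log2 fold change of 0.31 (edgeR FDR 2.2e-05). Of the subunits, Cdc23 fell by 0.20 (edgeR FDR 0.043) and Cdc27 rose with 0.15 (edgeR FDR 0.028), and both calls were lost in 6 of 11 alternatives. The call of APC4 was lost in 3 of them.

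A separate list of 12 transcriptional regulators of mitotic genes had 5 higher (41.7%) and 3 lower genes (25.0%) and a median log2 fold change of 0.06. Of all genes tested, 27.0% were higher and 23.1% lower. E2f2 rose with a log2 fold change of 0.29 (edgeR FDR 0.00014), its partner Dp with 0.15 (edgeR FDR 0.00082) and Caf1 with 0.16 (edgeR FDR 0.00045). E2f1 and mip40 rose with 0.11 (edgeR FDR 0.019) and 0.16 (edgeR FDR 0.018), calls lost in 7 and 5 of 11 alternatives. Dref, which binds the DRE, fell by 0.16 (edgeR FDR 0.0011), Rbf2 by 0.33 (edgeR FDR 0.0082) and mip120 by 0.20 (edgeR FDR 0.0023). The call of Rbf2 was lost in 2 alternatives, without insulin replicate 1 and without vehicle replicate 3.

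**Figure D4:**
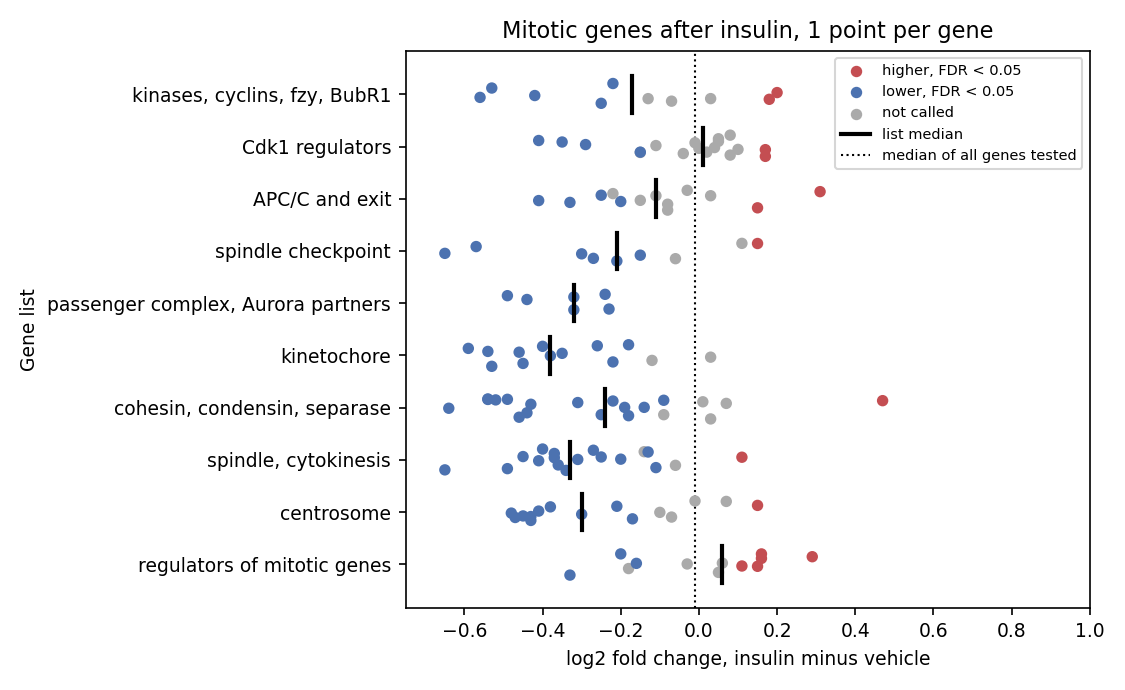
Log2 fold change (insulin minus vehicle) of every tested gene in the 10 described genes and 9 further mitotic lists, 1 point per gene, coloured by call, with the list median (black bar) and the median of all tested genes (dotted line). The kinetochore median lies at -0.38 and that of the Aurora partners at -0.32, while those of the Cdk1 regulators (0.01) and of the transcriptional regulators (0.06) lie near the dotted line.

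Markers of the line moved at the same time. Of 10 plasmatocyte markers 8 were measured, and 7 of them fell, against 23.1% of all genes tested. Their summed level was 1810 to 1850 CPM in vehicle and 1490 to 1590 CPM after insulin, and NimC1 and Sr-CI have no value here. The summed level of 3 of 4 lamellocyte markers was 1950 to 2060 and 1620 to 1680 CPM, nearly all from cher and mys, which many cells express. The sums were 3.08 to 3.96 and 2.6 to 3.98 CPM for 1 of 4 crystal cell markers and 6.17 to 6.93 and 5.63 to 6.17 CPM for 4 of 6 muscle markers. Neuron markers, 6 of 6, summed to 55.8 to 65.2 and 66.3 to 68.6 CPM, mostly elav, and germline markers, 5 of 5, to 136 to 140 and 124 to 131 CPM, mostly aub. The part of these shifts in the results was not tested.

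The mean profile of the 10 genes over the 6 libraries, each gene standardized on the log2 scale, was matched most closely by CG8460 and CG11396 (Pearson r = 0.996 for each), dgt6 and CG32068 (0.992 for each) and Snx6 (0.990). With 6 libraries in 2 treatments such values are common, and 625 of 7313 candidate genes reached 0.9. The members themselves divided: fzy and aurB had an r of 0.96 with the mean, and polo, aurA and BubR1 0.92. The value was 0.68 for Cdk1 and 0.66 for CycB3. It was below 0 for CycB (-0.43), CycA (-0.72) and stg (-0.82). Each member is part of the mean it is compared with.

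ATAC-seq marks DNA open to a transposase, and the authors called peaks per treatment from pooled samples, and counts per sample were not used here. The peaks are therefore given with no spread between samples, and their change was not tested here. In the merged set of 10269 peaks, 10 were annotated to 9 of the genes, with 2 for BubR1 and none for aurB. All 10 overlapped a peak of both treatments by at least 1 bp. Of all merged peaks, 8.78% were found in the insulin list only and 12.4% in the vehicle list only. Most merged peaks were thus not limited to 1 list, and the 10 are not particular in this. For 8 the annotation was a promoter of ≤1 kb, 1 peak of BubR1 lay 1-2 kb upstream, and the peak of fzy was annotated to a 3′ UTR and lay beyond the annotated end of the gene. A start site of 8 of the 10 genes lay in a merged peak, against 58.3% of 8504 tested genes.

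The genes with no annotated start inside a merged peak were Cdk1 and aurB, which changed differently in RNA. The Cdk1 peak, chr2L:10385821-10386200, was annotated as a promoter of ≤1 kb and began 62 bp inside the gene. The nearest merged peak to aurB lay 4937 bp away and was annotated to CR43807. In all, 47.1% of tested genes have no merged peak annotated to them. The start of fzy lay in a peak of 2650 bp that the annotation assigns to its neighbour cni. The open region of aurA was 6490 bp wide, with an authors' mean count of 3425 against a median of 243 over merged peaks, but it also holds the starts of CG3281 and the heat shock gene Hsp70Ab, and its summit lay at -3518 bp from the start of aurA, that is, upstream. The open region of stg was 5120 bp wide with an authors' mean count of 1809, called as 1 peak in vehicle and as 2 peaks after insulin. This region also holds the start of CG45544. The peaks of CycA (357), CycB (329), polo (337) and the promoter peak of BubR1 (360) had similar authors' mean counts, and that of CycB3 was 187. These counts are not scaled to peak width. Per kb, aurA had 528, with 93.8% of merged peaks lower, and stg 353, with 46.1% lower. CycB3 had 367 per kb, with 53.7% lower, and CycA 310, with 22.1% lower. The values per kb were 392 for CycB, 370 for polo and 387 for the promoter peak of BubR1. Cdk1 had 408 per kb, with 73.4% lower.

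The authors' peak score, read here as a rank inside each list, has a median of 115 in the insulin list and 130 in the vehicle list. The CycA peak scored 108 after insulin and 167 in vehicle, and 46.9% and 58.8% of the peaks of those lists scored lower. The CycB peak scored 140 and 272, with 57.2% and 74.1% scoring lower. The polo peak scored 216 and 281, with 72.5% and 75.1% scoring lower, and the aurA region 1005 and 884, with 95.6% and 94.0% scoring lower. CycA rose in RNA and polo and aurA fell, and their peaks kept a place in both lists. The lowest places were those of Cdk1 after insulin, with 5.44% of peaks scoring lower, and of the upstream BubR1 peak in vehicle, with 0.0209% scoring lower.

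**Figure D5:**
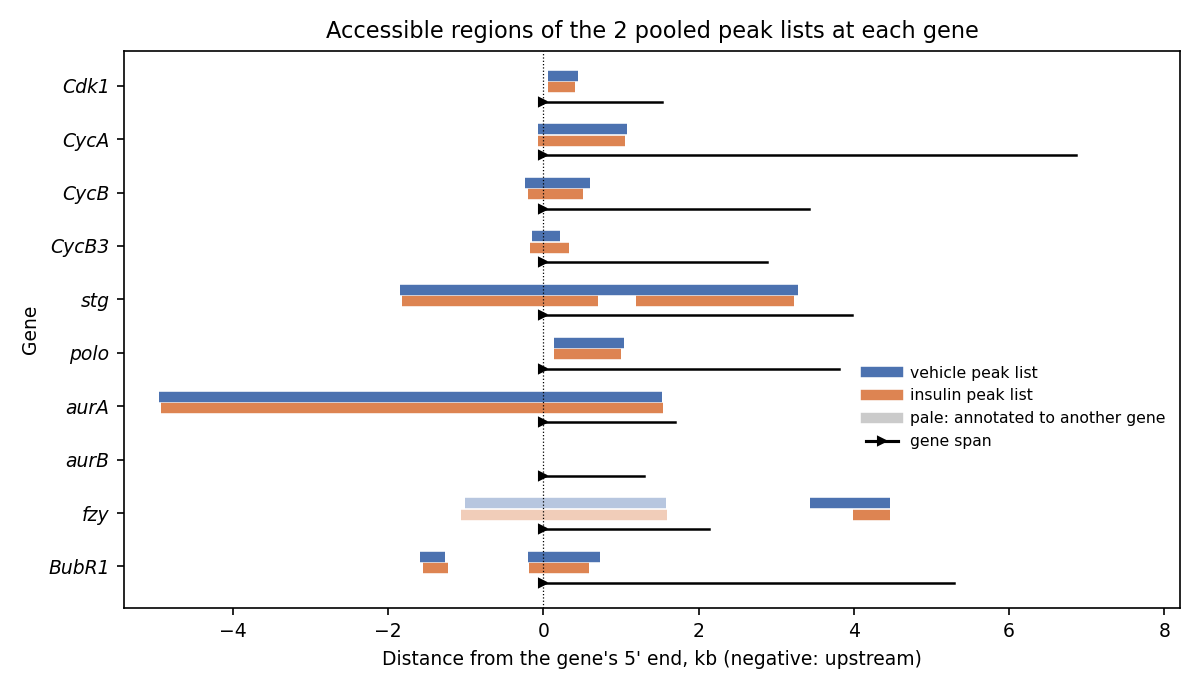
Peaks of the pooled vehicle (blue) and insulin (orange) lists that overlap the merged peaks annotated to each gene. Distance is in kb from the gene's 5′ end, with the gene span as a black line. Peaks annotated to another gene are drawn for fzy only, over its start, in pale colours. The regions of stg (5120 bp) and aurA (6490 bp) are the widest of the 10. No peak is drawn for aurB, as the nearest, 4937 bp from its start, is annotated to CR43807.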

How the data were processed

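RNA-seq and ATAC-seq were performed on 6 samples each, 3 per treatment, and samples were grouped by the treatment in their labels. For RNA-seq, the authors mapped single reads of 50 nt, after rRNA removal, with STAR (BDGP6) and ran featureCounts by strand, and the deposited raw counts are whole numbers that are not normalized. For ATAC-seq, the authors used Novoalign on dm6 and called peaks per treatment on pooled samples, and each deposited peak carries a score. The authors' annotated table of merged peaks gives a mean normalized count per peak, a signal over all samples. Columns of the authors' own comparisons, which hold fold changes and p-values, were not used. The sources used here give no versions of these tools.

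Counts were scaled by TMM and tested in R 4.3.3 with edgeR 4.0.16 and limma 3.58.1, by robust quasi-likelihood fits after filterByExpr, which kept 8683 of 10287 genes, with Benjamini-Hochberg adjustment over all of them and FDR < 0.05 as the threshold. The biological coefficient of variation was 4.4%, at 7132065 to 10256535 counts per library. The scripts were tested on simulated data. Ratios of counts were compared by exact permutation. Likeness used log2 CPM with a prior count of 2 and genes of at least 5 CPM. Alternatives were DESeq2 1.42.0, other scalings, no filter, a fit that was not robust and each library left out. Exon lengths and start sites came from the Ensembl annotation of dm6, whose coordinates equal those of the authors' table for all 10 genes. Python 3.11.15, numpy 2.4.6, pandas 2.3.3, scipy 1.17.1 and matplotlib 3.10.9 were used.

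The 10 genes and the gene lists were chosen with earlier results of these data known. Named genes are the 10 members, up to 4 genes per list with the smallest FDR, and the 5 genes most like the members' mean profile. Others are marked where they appear or are given here. The genes cid, Nnf1b, endos, mts, Cdc23, Cdc27, E2f1, mip40, Rbf2 and mip120 fall outside this rule and were named with their values known. Marker lists are given as sums and counts, and 1 further gene that the rule names is not reported here.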

Additional observations from a re-analysis of the deposited data

How the results depend on the processing

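All 7 calls among the 10 genes, 2 higher and 5 lower, were made in each of 11 alternatives. The only direction among them that turned was that of CycB, which was not called and had a log2 fold change of -0.01 with library totals as the scaling. The log2 fold change ranged from -0.60 to -0.50 for aurB, -0.58 to -0.50 for BubR1, -0.46 to -0.39 for aurA, -0.29 to -0.23 for polo, -0.26 to -0.19 for fzy, 0.14 to 0.22 for CycA and 0.16 to 0.25 for stg. Over the 8 mitotic lists, 60 to 78 genes were lower against 71, and 4 to 8 were higher against 8 (5 with DESeq2, 4 with library totals). With 1 library left out, 5 to 8 were higher, with 5 without insulin replicate 3 or without vehicle replicate 2. DESeq2 gave 1 higher and 2 lower for the APC/C (against 2 and 4), 0 higher for the spindle checkpoint and for the spindle (against 1 each) and 3 higher transcriptional regulators (against 5). Library totals gave 1 higher for the APC/C, 0 higher for the checkpoint, the spindle and the centrosome (against 1 each) and 3 higher regulators. A fit that was not robust gave 0 higher for the spindle. Over all 8683 genes tested, 1861 were higher and 1351 lower with DESeq2, and 1947 and 2475 with library totals, against 2342 and 2002. With 1 library left out, the counts ran from 1 to 2 higher and 2 to 4 lower for the APC/C, 0 to 1 higher for the checkpoint and the spindle, and 3 to 5 higher regulators. The APC/C count of 2 lower was found without insulin replicate 1. The cause was not tested. The libraries carry no replicate number in the table, so replicates here are numbered by column within a treatment. At 50% overlap of both peaks, the peaks of stg and fzy counted as vehicle only (2), and 8 remained in both lists. With the lowest-scoring 25% of peaks left out of each list, the Cdk1 peak was vehicle only (1) and the upstream BubR1 peak was in neither list (1). No paired analysis was possible because the count columns carry no replicate numbers. CycB3 had the lowest depth of the 10 genes, at 157 to 240 counts per library.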

Other observations

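Genes with longer exons were lower more often across the whole table, from 13.7% of the 1701 shortest genes to 30.8% of the 1699 longest, with median log2 fold changes of 0.02 and -0.03. In the genes of the 8 mitotic lists, 7 of 13 were lower among those shortest genes and 25 of 32 among the longest. The part of length in the results was not tested.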
